A study of Mus musculus with 27 samples.

Results

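Colony-stimulating factor 1 (CSF1), its receptor and the transcription factors of the macrophage lineage were followed in mouse embryonic fibroblasts (MEFs) on their way to induced neurons (iNs). The set held 9 genes, chosen by name from the 54532 genes of the deposited table: the ligands Csf1 and Il34, the receptor Csf1r, and the transcription factors Spi1, Irf8, Maf, Runx1, Cebpa and Cebpb. Poly(A) RNA was sequenced from 27 libraries in 9 groups of 3 replicates, which were WT, Per1-/- and Per2-/- cells at 3 time points (days 0, 2 and 4). Per1 and Per2 encode repressors of the circadian clock, and the study asked how their loss changes reprogramming. The Per1-/- and Per2-/- MEFs came from mice with the germline alleles Per1tm1Drw and Per2tm1Drw, respectively. Each dish was made from embryos that were pooled after the head and the heart were removed, and the sex of the embryos was not determined. Cells of all 9 groups had received neuronal reprogramming factors on doxycycline-inducible lentiviruses. The study's methods place this transduction 3 days before day 0, whereas the series' own design text counts the days from transduction, and the labels mark all samples as transduced. The order of the methods is used here. In that order doxycycline and a serum-free neuronal medium were given from day 0 on, and before induction means on day 0. Time, induction of these factors and the change of medium therefore cannot be told apart in these libraries.

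CSF1 and interleukin 34 (IL-34) are secreted proteins that bind the same receptor tyrosine kinase, CSF1R, which macrophages need for survival, proliferation and differentiation. Fibroblasts are a known source of CSF1, and CSF1R is made mainly by cells of the mononuclear phagocyte lineage. PU.1 (the product of Spi1) opens and maintains the macrophage programme, including Csf1r, and IRF8, RUNX1, C/EBPα and C/EBPβ act with it at different stages. c-MAF (Maf) is a basic leucine zipper factor of mature resident macrophages. Of the 9 proteins, C/EBPβ, C/EBPα, RUNX1 and c-MAF are also used by fibroblasts, fat cell precursors and other mesenchymal cells.

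The labels call the cells of every group induced neurons, including those of day 0. Fibroblast transcripts had the highest sums of the marker lists. The 15 fibroblast markers summed to between 2840 and 6592 FPKM (fragments scaled to gene length and to library size), and the highest was Col1a1 with a mean of 1504 FPKM. Macrophage transcripts were found in every library as well. The 27 macrophage markers summed to between 149 and 2235 FPKM, with Lyz2 highest at a mean of 320 FPKM, and 25 of them reached a mean of 0.5 FPKM, all but Cd86 and Cd163. None of 20 markers of other leukocytes did so, and their sum stayed between 0.281 and 2.56 FPKM. The 10 endothelial markers summed to at most 12.2 FPKM. The highest were Tek, with a mean of 2.84 FPKM, Erg and Egfl7. The mean was under 0.5 FPKM for 6 of the 10, among them Pecam1 at 0.0536. The depth was 15815013 to 24264097 fragments per library. Per1 transcript on day 0 was at 6.33, 5.58 and 5.44 FPKM in WT, 4.96, 3.23 and 4.15 in Per1-/- and 5.15, 4.89 and 6.64 in Per2-/- libraries. Per2 transcript was higher in the libraries labelled Per2-/- (1.87, 2.00 and 1.90 FPKM on day 0) than in WT (0.906, 0.957 and 0.817), so that it did not show the loss. By western blotting, the study found PER1 protein lost in Per1-/- MEFs and PER2 protein lost in Per2-/- MEFs. A level per gene does not show which part of a gene is missing. The comparisons here therefore use the genotypes as labelled. Per2-/- is used throughout as the label of these libraries and cells, not as a genotype that the transcript shows. In bulk RNA, fewer cells of a type and less RNA per cell cannot be told apart, which holds for every value here.

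All 9 genes were measured in all 27 libraries, and all 9 passed the filter for testing, a mean of at least 0.5 FPKM. FPKM is per length, so that levels can be compared between genes. Over all libraries Csf1 had the highest level, with a mean of 65.1 FPKM and a range of 26.8 to 171. Cebpb followed at a mean of 35.7 (13.8 to 78.2), Csf1r at 23.2 (2.69 to 79.1), Maf at 9.99 (3.31 to 29.3), Spi1 at 9.19 (1.14 to 27.9), Cebpa at 8.19 (1.85 to 25.0) and Runx1 at 3.80 (1.64 to 7.47). Irf8 (1.37, 0.293 to 3.68) and Il34 (0.890, 0.344 to 1.85) were the lowest, and Il34 rested on as few as 11 and at most 70 fragments per library. Csf1 was above Cebpb in all 27 libraries, whereas Maf was above Spi1 in 18 of 27 and Spi1 above Cebpa in 13 of 27, so that the order of these 3 was not fixed.

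The order changed with time. On day 0 the 9 libraries of Csf1 (91.0 to 171 FPKM) and those of Cebpb (44.6 to 78.2) did not overlap with each other or with Csf1r (2.69 to 24.1). By day 4 the means of Csf1 and Csf1r were nearly the same, 41.3 and 41.2 FPKM, and Csf1 was the higher in 5 of 9 libraries. Csf1r, Spi1, Maf and Cebpa stood above Runx1 on that day, with a mean of 13.5 FPKM for Cebpa and 2.48 for Runx1 and no overlap between the 9 libraries of this pair. On day 0 Runx1 (5.89 FPKM) was above Maf (5.19) in 5 of 9 libraries only.

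**Figure D1:**
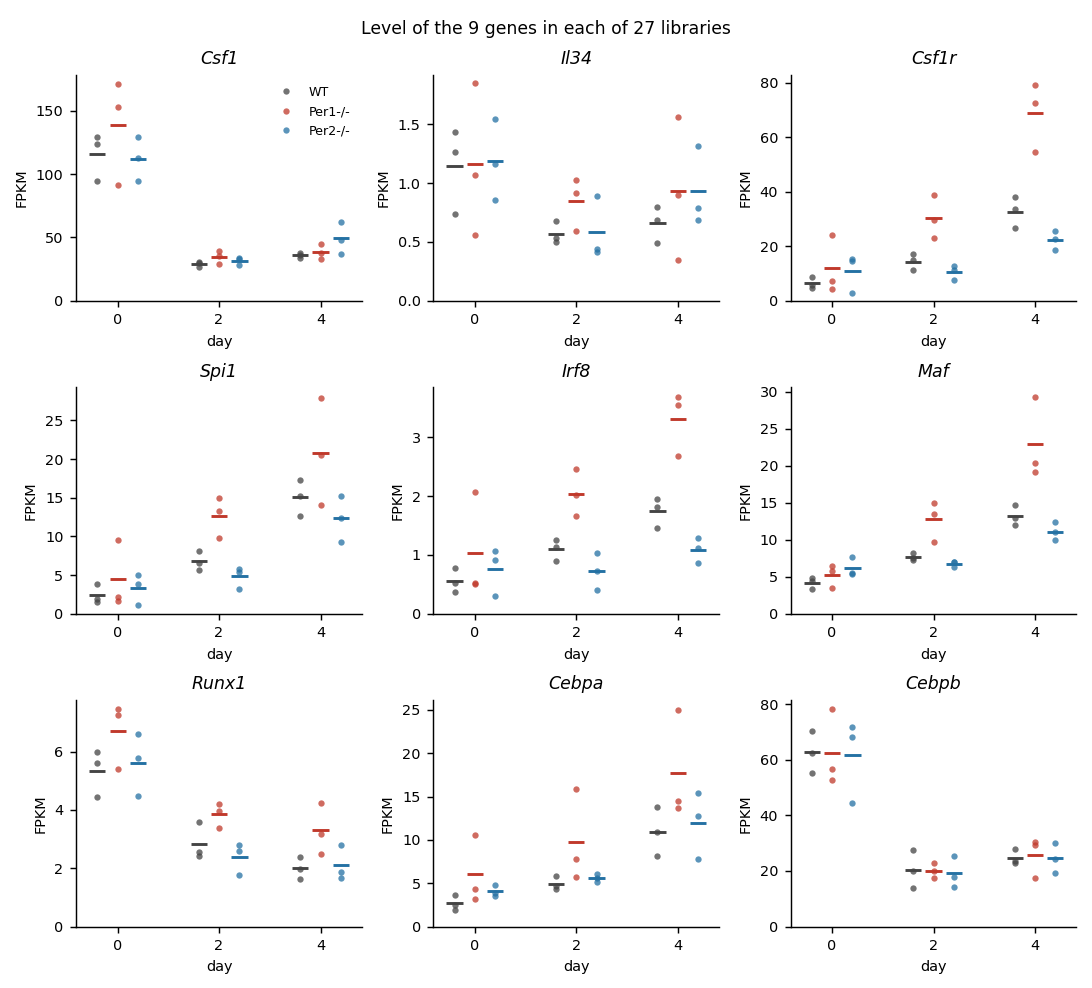
Level of each of the 9 genes in FPKM (vertical axes, each from 0) on days 0, 2 and 4, with 1 point per library and a bar at the mean of 3 replicates for WT, Per1-/- and Per2-/- cells. Csf1, Cebpb and Runx1 were highest on day 0, and Csf1r, Spi1, Irf8, Maf and Cebpa were highest on day 4, where Csf1r of the 3 Per1-/- libraries lay at 54.7 to 79.1 FPKM against 18.6 to 37.9 in the other 6.

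Csf1 (ENSMUSG00000014599, GRCm38 chr3:107741048-107760469, minus strand), the main ligand, fell sharply in every genotype. On day 0 it was at 123, 94.7 and 129 FPKM in WT, at 171, 91.0 and 153 in Per1-/- and at 112, 94.6 and 130 in Per2-/- libraries. On day 2 the WT libraries held 30.5, 30.1 and 26.8 FPKM, Per1-/- libraries 39.0, 29.2 and 35.3, and those labelled Per2-/- 32.7, 28.2 and 33.9. Every library of day 0 was above every library of days 2 and 4. From day 0 to day 2, Csf1 fell by 1.97 on the log2 scale in WT (standard error 0.20, adjusted p = 5.03e-08), by 1.96 in Per1-/- and by 1.82 in Per2-/- cells (adjusted p = 6.34e-08 and 1.94e-07). Log2 fold changes here are of FPKM plus 0.1 and come from limma with Benjamini-Hochberg adjustment over all 14932 tested genes. Calls needed an adjusted p of 0.05 or less together with a log2 change of 0.58 or more in either direction.

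The lower level of Csf1 persisted to day 4, at 38.0, 36.0 and 34.0 FPKM in WT, 44.6, 33.4 and 38.1 in Per1-/- and 48.2, 37.1 and 62.4 in Per2-/- libraries. Against day 0 the log2 change was -1.67 (WT), -1.80 (Per1-/-) and -1.21 (Per2-/-), and each was called. Between days 2 and 4 Csf1 was not called in any genotype, with log2 changes of 0.31, 0.16 and 0.61 (adjusted p = 0.0688 for the last, in the libraries labelled Per2-/-). The 15 fibroblast markers did not share this fall. Up to day 4, 8 of them were called higher and 2 lower in WT cells, and their median log2 change was 0.66. Over all tested genes, 43.8% were called in that comparison.

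Il34 (ENSMUSG00000031750, chr8:110741829-110805924, minus strand), the second ligand, stayed low throughout. WT libraries held 1.26, 1.43 and 0.738 FPKM on day 0, then 0.532, 0.679 and 0.499 on day 2, and finally 0.492, 0.688 and 0.796 on day 4. The lowest library of day 0 (0.563 FPKM, Per1-/-) lay below the highest of day 2 (1.02), so that the days overlapped. Its log2 change from day 0 to day 2 was -0.85 in WT (95% interval -1.74 to 0.03), -0.31 in Per1-/- and -0.95 in Per2-/- cells (adjusted p = 0.0898, 0.545 and 0.0648), and Il34 was called in none of the 24 comparisons of this fit. Its change to day 2 lay close to the threshold and was called in 2 of 36 alternatives in WT and 5 of 36 in Per2-/- cells. In Per1-/- cells its direction turned without replicate 1 of day 0 (0.07 to day 2) and when FPKM was rescaled to a common sum (0.04). Csf1 exceeded Il34 by 28.2 to 175 times in single libraries, and by a median of 97.8, 53.8 and 52.3 times on days 0, 2 and 4.

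Csf1r (ENSMUSG00000024621, chr18:61105572-61132149, plus strand), the receptor, moved the opposite way to Csf1. On day 0 it was at 8.82, 4.84 and 5.96 FPKM in WT, at 4.45, 7.17 and 24.1 in Per1-/- and at 15.4, 2.69 and 14.5 in Per2-/- libraries. Replicate 3 of Per1-/- was thus far above its group, and replicates 1 and 3 of Per2-/- stood well above replicate 2. On day 4 the WT libraries held 33.6, 26.6 and 37.9 FPKM, Per1-/- libraries 79.1, 54.7 and 72.5, and those labelled Per2-/- 25.7, 18.6 and 22.5. Of the 9 libraries of day 4, those labelled Per2-/- replicates 2 and 3 lay below the highest library of day 0 (24.1) and the others above it. Csf1r rose by 2.33 on the log2 scale in WT (standard error 0.53, adjusted p = 0.000625), by 2.87 in Per1-/- (adjusted p = 7.76e-05) and by 1.37 in Per2-/- cells (adjusted p = 0.0298) by day 4. Without Per1-/- replicate 3 of day 0, the rise in Per1-/- cells was 3.56, and that to day 2 was 2.37. Without Per2-/- replicate 2 of day 0, the change in Per2-/- cells was 0.56 and was not called (adjusted p = 0.294). That call was also lost without replicate 1 (adjusted p = 0.0806) or 3 (adjusted p = 0.0632) of Per2-/- on day 4, with only the groups compared (adjusted p = 0.115) and with no filter on low values (adjusted p = 0.059). By day 2 Csf1r was called in Per1-/- cells (1.68, adjusted p = 0.0093), and not in WT (1.14, adjusted p = 0.0664) or Per2-/- cells (0.28, adjusted p = 0.672). The Per1-/- call was lost without replicate 1 of day 0 (1.17, adjusted p = 0.0712) and in a fit of only the groups compared (adjusted p = 0.0563). In WT cells Csf1r was called in 7 of 37 alternatives, and in Per2-/- cells the direction turned without replicate 2 of day 0 (-0.53). The 3′ end of Csf1r overlaps the opposite-strand gene Hmgxb3 (mean 9.60 FPKM), and reads there cannot be assigned by strand in these nondirectional libraries.

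Ligand and receptor came closer in level. Csf1 transcript was 6.36 to 38.5 times Csf1r transcript on day 0 (median 14.0), 0.914 to 3.76 times on day 2 (median 2.06) and 0.526 to 2.77 times on day 4 (median 1.13). On day 4 the ratio was 0.526 to 0.610 in Per1-/-, 0.897 to 1.35 in WT and 1.88 to 2.77 in Per2-/- libraries, and these 3 ranges did not overlap. Csf1r by itself did not overlap either (54.7 to 79.1, 26.6 to 37.9 and 18.6 to 25.7 FPKM). Csf1 did (33.4 to 44.6, 34.0 to 38.0 and 37.1 to 62.4 FPKM). How often other pairs of genes part the genotypes in this way was not counted. The ratio is a description of transcripts and was not tested.

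**Figure D2:**
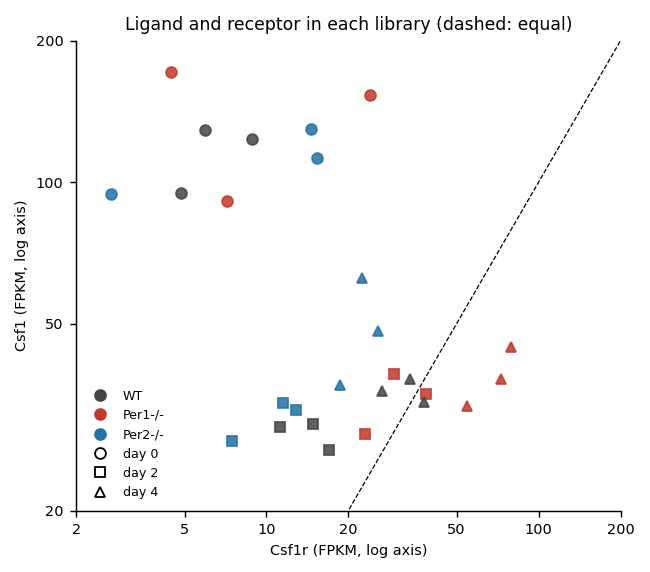
Csf1 (vertical) against Csf1r (horizontal) in FPKM on log axes, with 1 point per library, colours for the genotype and shapes for the day. The dashed line marks equal levels, which Csf1r exceeded in all 3 Per1-/- libraries of day 4 (Csf1 at 0.526 to 0.610 times Csf1r).

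Spi1 (ENSMUSG00000002111, chr2:91082390-91115756, plus strand) had the largest rise among the transcription factors in WT cells. In WT libraries it went from 3.80, 1.87 and 1.46 FPKM to 8.17, 5.69 and 6.57 by day 2 and to 17.3, 15.2 and 12.6 by day 4, with no overlap between the days. In Per1-/- libraries it went from 1.69, 2.19 and 9.50 FPKM to 27.9, 14.1 and 20.5, and in those labelled Per2-/- from 4.97, 1.14 and 3.86 to 15.3, 9.33 and 12.4. The log2 change from day 0 to day 4 was 2.71 in WT, 2.57 in Per1-/- and 2.06 in Per2-/- cells (standard error 0.52, adjusted p = 0.000118, 0.000212 and 0.00176). By day 2 it had been called in WT (1.58) and Per1-/- cells (1.89), and not in Per2-/- cells (0.71, adjusted p = 0.257). The WT call of day 2 was lost without WT replicate 3 of day 0 (1.30, adjusted p = 0.0614). Without replicate 3 of day 0 the changes in Per1-/- cells were 2.64 to day 2 and 3.32 to day 4. The change to day 4 was 1.45 in Per2-/- cells without replicate 2 of day 0.

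Irf8 (ENSMUSG00000041515, chr8:120736358-120756694, plus strand), which directs monocyte and macrophage fate with PU.1, rose from a low level. WT libraries held 0.775, 0.370 and 0.523 FPKM before induction and 1.82, 1.45 and 1.95 after 4 days, and Per1-/- libraries 0.498, 0.515 and 2.07 and then 3.68, 2.67 and 3.55. The replicate of Per1-/- with high Csf1r on day 0 was also the one with high Irf8 and Spi1. Libraries labelled Per2-/- held 1.06, 0.293 and 0.914 FPKM and then 1.28, 0.859 and 1.12, and the days overlapped there. Up to day 4 Irf8 was called in WT (1.52, adjusted p = 0.00383) and Per1-/- cells (1.86, adjusted p = 0.000736), and not in Per2-/- cells (0.60, 95% interval -0.29 to 1.49, adjusted p = 0.23). Without Per1-/- replicate 3 of day 0 the change in Per1-/- cells was 2.47, and that to day 2 was 1.80. A pseudocount of 1 in place of 0.1 made the changes to day 4 smaller, 0.82 in WT and 1.16 in Per1-/- cells, and both were called. By day 2 Irf8 had been called in Per1-/- cells (1.19, adjusted p = 0.0206), and this call was lost without their replicate 1 (adjusted p = 0.109) or 2 (adjusted p = 0.113) of day 0 or replicate 3 of day 2 (adjusted p = 0.0704), and with only the groups compared (adjusted p = 0.104). In WT cells Irf8 was not called by day 2 (0.90, adjusted p = 0.0746), but was in 6 of 37 alternatives.

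Maf (ENSMUSG00000055435, chr8:115682942-115707794, minus strand) rose step by step. WT libraries held 4.37, 4.83 and 3.31 FPKM before induction, 7.57, 7.26 and 8.26 on day 2 and then 12.9, 12.0 and 14.7 by day 4. In Per1-/- libraries it was at 6.41, 3.53 and 5.79, then 15.0, 9.70 and 13.5, then 29.3, 19.2 and 20.3 FPKM. In both genotypes each day lay wholly above the day before. Libraries labelled Per2-/- held 5.46, 5.31 and 7.71 FPKM before induction, 6.95, 6.36 and 6.97 after 2 days and 9.89, 11.0 and 12.4 after 4 days. The log2 change to day 2 was 0.88 in WT and 1.28 in Per1-/- cells (standard error 0.21, adjusted p = 0.000975 and 2.1e-05), and 0.15 in Per2-/- cells (adjusted p = 0.556). Maf was the one member called between days 2 and 4, with 0.76, 0.84 and 0.70 in WT, Per1-/- and Per2-/- cells (adjusted p = 0.037, 0.0264 and 0.0459). These 3 calls were close to the threshold and held in 21, 24 and 13 of 27 fits with 1 library left out. Most of the 27 fits drop a library outside the comparison, which leaves the log2 change as it was. The WT and the Per2-/- call were each lost without any single library of the groups compared. The Per1-/- call was lost without replicate 2 or 3 of day 2 or replicate 1 of day 4.

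Runx1 (ENSMUSG00000022952, chr16:92601466-92826149, minus strand), which sets up the blood lineage and acts upstream of Spi1, fell where Spi1 rose. WT libraries went from 5.98, 4.44 and 5.63 FPKM to 3.58, 2.43 and 2.54 by day 2 and to 1.98, 1.64 and 2.39 by day 4. Per1-/- libraries went from 7.47, 7.25 and 5.40 to 4.24, 2.50 and 3.19 FPKM on day 4, and those labelled Per2-/- from 4.48, 6.61 and 5.78 to 1.68, 1.86 and 2.80. Every library of day 0 was above every library of days 2 and 4 (at most 4.24 FPKM). The log2 change to day 4 was -1.38, -1.01 and -1.39 in WT, Per1-/- and Per2-/- cells (standard error 0.23, adjusted p = 2.35e-05, 0.000609 and 2.46e-05).

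The C/EBP factors moved in opposite directions. Cebpb (ENSMUSG00000056501, chr2:167688915-167690418, plus strand), an early response gene of inflammation and fat cell differentiation, was at 55.3, 62.4 and 70.5 FPKM in WT libraries on day 0 and at 27.7, 19.9 and 13.8 on day 2. All 9 libraries of day 0 (44.6 FPKM and above) were over all 18 later ones (at most 30.4). The log2 change to day 2 was -1.66, -1.62 and -1.69 in WT, Per1-/- and Per2-/- cells (standard error 0.26), and to day 4 -1.34, -1.30 and -1.32, and all 6 were called. Cebpa (ENSMUSG00000034957, chr7:35119293-35121928, plus strand), which drives myeloid and fat cell differentiation, was at 3.65, 2.51 and 1.85 FPKM in WT libraries before induction, at 4.34, 5.80 and 4.67 after 2 days and at 10.9, 8.17 and 13.8 after 4 days. Replicate 1 of Per1-/- was high on every day, with 10.6, 15.9 and 25.0 FPKM against 3.20 to 14.5 in replicates 2 and 3. Cebpa rose by 2.01, 1.68 and 1.49 on the log2 scale to day 4 in WT, Per1-/- and Per2-/- cells (standard error 0.39, adjusted p = 0.000123, 0.000761 and 0.00224). Its WT call of day 2 (0.90, adjusted p = 0.0492) was at the threshold and held in 8 of 27 fits with 1 library left out. Without WT replicate 3 of day 0 it was 0.67 (adjusted p = 0.189). The start of Cebpb overlaps the opposite-strand gene Tmem189 (mean 10.6 FPKM), and that of Cebpa overlaps the antisense gene Gm45091 (mean 0.399 FPKM), so that reads in these stretches cannot be assigned by strand.

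**Figure D3:**
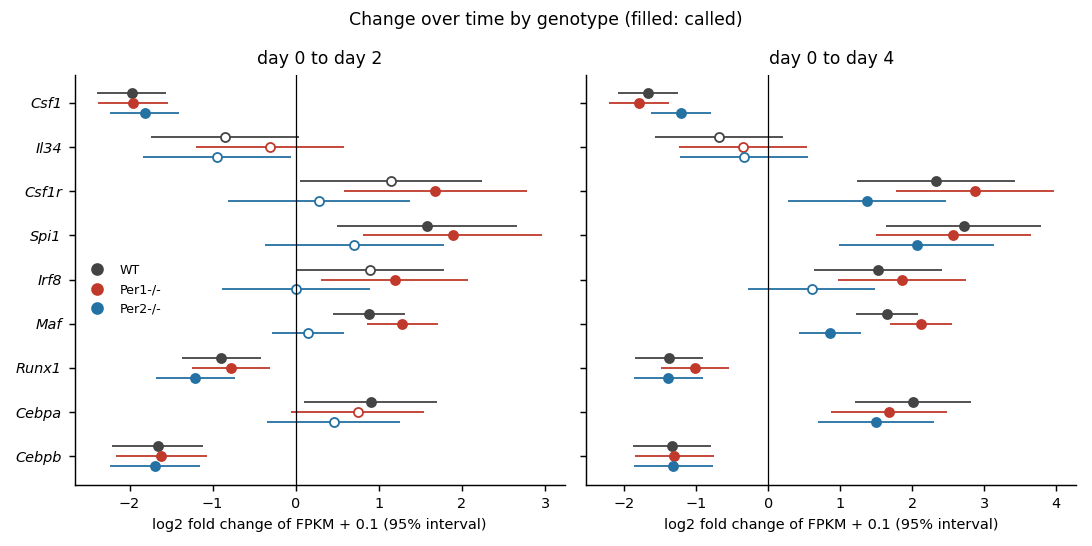
Log2 fold change of FPKM plus 0.1 from day 0 to day 2 (left) and to day 4 (right) for the 9 genes in WT, Per1-/- and Per2-/- cells, with 95% intervals from limma and filled points for called changes. Csf1, Runx1 and Cebpb lie left of 0 and Csf1r, Spi1, Irf8, Maf and Cebpa right of it or, for Irf8 of Per2-/- on day 2, at it (0.01), and Il34 was not called.

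From day 0 to day 2, 3 of the 9 genes were called higher and 3 lower in WT cells, 4 and 3 in Per1-/- cells, and 0 and 3 in Per2-/- cells. Of all tested genes, 40.5%, 39.6% and 35.5% were called in the same comparisons. From day 0 to day 4 the members gave 5 higher and 3 lower in WT and in Per1-/- cells and 4 and 3 in Per2-/- cells, against 43.8%, 43.0% and 40.3% of all genes. Between days 2 and 4, 1 of 9 was called in each genotype, against 3.21%, 2.44% and 4.06% of all genes. The deposited FPKM carried a library factor that kept the median change of all genes near 0. When FPKM was rescaled to a common sum, the median of all genes shifted by 0.41, 0.38 and 0.32 from day 0 to day 2 in WT, Per1-/- and Per2-/- cells. Il34 in Per1-/- cells turned direction with that shift, and Runx1 was then at -0.47 in WT and -0.39 in Per1-/- cells to day 2 and was not called.

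To set the sequences beside these changes, the 250 bases before the transcription start were taken from the RefSeq promoter table (GRCm38.p6) for 5 of the 9 genes. Windows of Il34, Csf1r, Spi1 and Maf were not taken, which does not show that the promoter table lacks them. Csf1, Cebpb and Runx1 are shown as the genes that fell and Irf8 and Cebpa as genes that rose. Runx1 and Irf8 each had a pair of starts in the table, which the deposited value per gene does not separate. Both windows of Runx1 (distal and proximal) are shown, and for Irf8 the one at the start of the gene in the deposited table. Capitals mark matches on either strand to any of 11 motifs, and no matches of different motifs overlapped. The motifs, with the share of 32851 promoter windows of the same length that hold each, were the E-box CACGTG (6.02%), to which the clock factors CLOCK and BMAL1 bind, the STAT element TTCNNNGAA (7.02%), the CCAAT box CCAAT (33.8%), the TATA box TATAAA (12.4%), AP-1 TGANTCA (6.75%), CRE TGACGTCA (1.55%), PU.1 GAGGAAGT (2.44%), C/EBP TTGCGCAA (0.164%), RUNX TGTGGT (14.0%), NF-κB GGGANTTCC (1.43%) and the MAF element TGCTGAC (3.81%).
Csf1, chr3:107760470-107760719, minus strand: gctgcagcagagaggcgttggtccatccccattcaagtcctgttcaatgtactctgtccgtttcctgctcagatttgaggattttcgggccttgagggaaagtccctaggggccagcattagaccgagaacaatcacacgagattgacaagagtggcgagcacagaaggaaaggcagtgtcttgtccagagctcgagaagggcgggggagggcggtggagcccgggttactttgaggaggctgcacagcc
Cebpb, chr2:167688665-167688914, plus strand: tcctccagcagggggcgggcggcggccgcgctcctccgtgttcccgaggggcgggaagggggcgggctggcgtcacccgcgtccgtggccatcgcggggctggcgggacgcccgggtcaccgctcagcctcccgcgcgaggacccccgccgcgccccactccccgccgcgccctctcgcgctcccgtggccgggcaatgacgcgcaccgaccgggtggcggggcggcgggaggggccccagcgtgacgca
Runx1 distal, chr16:92826075-92826324, minus strand: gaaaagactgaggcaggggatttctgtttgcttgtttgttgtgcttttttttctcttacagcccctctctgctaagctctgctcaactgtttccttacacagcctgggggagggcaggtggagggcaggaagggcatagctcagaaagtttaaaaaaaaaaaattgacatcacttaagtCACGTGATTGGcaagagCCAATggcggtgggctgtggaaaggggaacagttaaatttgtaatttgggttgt
Runx1 proximal, chr16:92697330-92697579, minus strand: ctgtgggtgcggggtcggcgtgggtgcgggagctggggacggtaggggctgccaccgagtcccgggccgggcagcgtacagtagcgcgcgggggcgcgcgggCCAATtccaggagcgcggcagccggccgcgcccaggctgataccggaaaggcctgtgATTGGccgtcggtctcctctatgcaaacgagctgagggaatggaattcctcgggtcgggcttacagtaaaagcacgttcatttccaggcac
Irf8, chr8:120736108-120736357, plus strand: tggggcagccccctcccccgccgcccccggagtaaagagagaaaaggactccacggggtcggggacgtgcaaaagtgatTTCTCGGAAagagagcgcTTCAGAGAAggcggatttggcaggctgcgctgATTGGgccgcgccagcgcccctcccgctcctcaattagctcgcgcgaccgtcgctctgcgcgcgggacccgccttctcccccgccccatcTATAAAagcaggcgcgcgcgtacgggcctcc
Cebpa, chr7:35119043-35119292, plus strand: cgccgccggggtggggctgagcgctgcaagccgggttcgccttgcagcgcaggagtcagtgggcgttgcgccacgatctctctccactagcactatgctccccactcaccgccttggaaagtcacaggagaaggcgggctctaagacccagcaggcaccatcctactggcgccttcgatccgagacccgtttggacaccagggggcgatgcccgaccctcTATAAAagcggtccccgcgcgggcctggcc

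The windows of Csf1 and Cebpb held none of the 11 motifs, which says only that these letters are not in the window. That of Cebpb was 81.6% G and C with 41 CpG dinucleotides, and that of Csf1 56.4% with 10. The distal window of Runx1 held an E-box 71 to 66 bases before the start, directly followed by a reverse CCAAT box, and was the poorest in CpG with 2. The window of Irf8 that is shown held a pair of STAT elements, 171 to 163 and 153 to 145 bases before the start, and a TATA box 31 to 26 bases before it, while its other window, before the start 2281 bases further in, held none of the 11 motifs. A TATA box also lay 30 to 25 bases before the start of Cebpa. These matches describe the sequence and are not sites that were measured in these cells.

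Between genotypes few differences passed the test. On day 0, 7 of the 9 genes had a higher fitted level in Per1-/- than in WT cells, against 48.0% of all tested genes. On days 2 and 4 all 9 did, against 45.8% and 47.7%. Their median log2 differences were 0.70 and 0.67, against -0.01 over all tested genes on both days. The direction was not stable for all of them, since Cebpb (days 2 and 4) and Csf1 (day 4) were lower when FPKM was rescaled to a common sum, and Csf1, Il34 and Cebpb of day 4 were lower without Per1-/- replicate 1 (-0.01, -0.17 and -0.13). None of them was called on any day (0 of 9, against 0.0134%, 0.0067% and 0.0268% of all genes on days 0, 2 and 4), and 1, 2 and 2 had an unadjusted p under 0.05. The largest differences on day 4 were those of Csf1r (1.07, 95% interval -0.03 to 2.16, adjusted p = 0.821), Irf8 (0.88, adjusted p = 0.807) and Maf (0.77, 0.34 to 1.20, adjusted p = 0.415). Cebpb hardly differed, with 0.01 and an interval of -0.53 to 0.56. The study itself tested counts with DESeq2 and came to another result for Csf1r. It lists the gene of this receptor as raised in Per1-/- cells at both later time points, relative to each of the other genotypes. The lack of calls here therefore does not show that the genotypes were alike.

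Against the libraries labelled Per2-/-, the fitted differences of Csf1r, Spi1, Irf8 and Maf were larger than against WT on days 2 and 4, and those of Cebpa were smaller. Whether the 2 differences of a gene differ is the comparison of Per2-/- with WT, in which no member was called. On day 4 Maf was higher in Per1-/- cells by 1.02 (standard error 0.21, adjusted p = 0.0214) and was the 1 member called, against 0.556% of all genes. Its Per1-/- libraries (29.3, 19.2 and 20.3 FPKM) all lay above the highest Per2-/- library (12.4). This call was lost without Per1-/- replicate 1 (0.83, adjusted p = 0.167) or 3 (1.09, adjusted p = 0.0647) of day 4, and without Per2-/- replicate 1 (0.94, adjusted p = 0.113) or 3 (1.10, adjusted p = 0.0833) of day 4. Csf1r was at 1.62 (0.52 to 2.71, adjusted p = 0.165) and Irf8 at 1.52 (0.63 to 2.41, adjusted p = 0.106), and neither was called. On day 2 the differences were 1.51 for Csf1r, 1.45 for Irf8, 1.40 for Spi1 and 0.88 for Maf, with 5 members at an unadjusted p under 0.05 and 0 called, against 0.0737% of all genes. On day 0 there were 0 calls, against 0.0201%, and 0 at an unadjusted p under 0.05. The ligand Csf1 went the other way on day 4 (-0.33, 95% interval -0.74 to 0.09). Between the libraries labelled Per2-/- and WT, 0 members were called on days 0, 2 and 4, against 0.0067%, 0.0268% and 0.0067% of all genes, and 1, 0 and 1 had an unadjusted p under 0.05. These comparisons share groups and are not independent of each other.

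**Figure D4:**
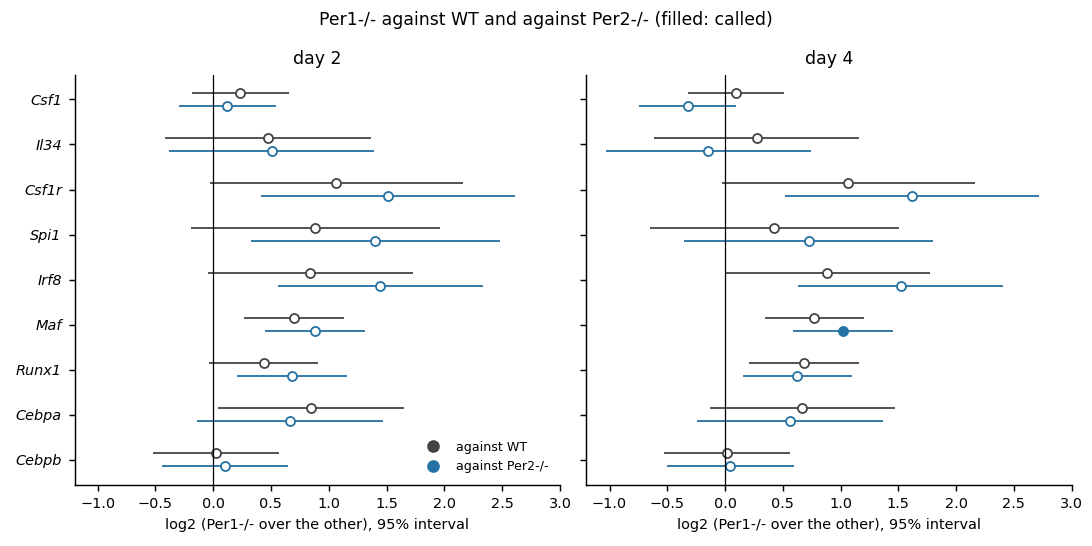
Log2 difference between Per1-/- cells and WT (grey) or the libraries labelled Per2-/- (blue) on days 2 and 4 for the 9 genes, with 95% intervals from limma. The filled point is the 1 called difference, Maf on day 4 (1.02), and the open points of Csf1r and Irf8 against Per2-/- on day 4 lie at 1.62 and 1.52.

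The Per1-/- libraries could also be set against the other 6 of their day. On day 2 the 3 Per1-/- libraries lay above all 6 others for Csf1r, Spi1, Irf8 and Maf (4 of 9), and on day 4 for Csf1r, Irf8 and Maf (3 of 9). Among all tested genes this held for 3.07% on day 2 and 4.92% on day 4. On day 0 it held for 0 members and 0.643% of genes. For Spi1 on day 4, Per1-/- replicate 2 (14.1 FPKM) fell among the WT libraries (12.6 to 17.3).

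Whether the change over time itself differed between genotypes was tested as an interaction. No member was called in any of the 6 tests, in each of which 0.0% of all genes were called. The lowest p was that of Maf, whose change to day 4 was 1.27 higher in Per1-/- than in Per2-/- cells (standard error 0.29, unadjusted p = 0.000295, adjusted p = 0.412). The change of Maf to day 4 in Per2-/- minus that in WT cells was -0.80 (95% interval -1.41 to -0.19, adjusted p = 1). At an unadjusted p under 0.05 there were 0 and 0 members for Per1-/- against WT to days 2 and 4, 1 and 1 for Per2-/- against WT, and 1 and 2 for Per1-/- against Per2-/-. The calls of Csf1r, Irf8 and Maf to day 2 in one genotype and not in another are therefore not shown to differ between genotypes.

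The macrophage markers moved along with part of the set. Their sum was 224 to 1198 FPKM in Per1-/- and 244 to 531 in WT libraries before induction, 660 to 1362 and 334 to 545 after 2 days, and 1283 to 2235 and 607 to 1129 after 4 days. The libraries labelled Per2-/- were at 149 to 605, 190 to 406 and 468 to 844 FPKM on the same days. Up to day 4, 18 of 25 tested markers were called higher in WT, 23 in Per1-/- and 11 in Per2-/- cells and 0 lower, with median log2 changes of 1.67, 2.28 and 1.02. Over all tested genes, 43.8%, 43.0% and 40.3% were called there in either direction. Between genotypes 0 of 25 were called on days 2 and 4, against 0.0067% to 0.556% of all genes in these comparisons. On both days 25 of 25 had a higher fitted level in Per1-/- than in WT cells, against 45.8% and 47.7% of all tested genes. On day 0, before induction, this already held for 24 of 25, against 48.0%. On that day 23 of 25 were also higher in Per2-/- than in WT cells, against 45.6%. Macrophage genes were well represented among those that the study, with DESeq2 on counts, reported as raised in Per1-/- cells on both days.

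Across the 27 libraries, with the mean of each day removed, Csf1r followed the mean of the 25 markers with r = 0.988, Irf8 with 0.967 and Spi1 with 0.932. The r was 0.690 for Maf, 0.481 for Runx1, 0.370 for Cebpa and 0.222 for Csf1, and 0.010 for Cebpb and -0.031 for Il34. These are descriptions over libraries that share cultures of 3 genotypes, and no test was made. Taken relative to the mean of the macrophage markers, the difference between Per1-/- and WT cells on day 4 was 0.13 for Csf1r, -0.05 for Irf8, -0.16 for Maf and -0.51 for Spi1, in place of 1.07, 0.88, 0.77 and 0.43. Against Per2-/- cells on that day, the relative differences were 0.25 (Csf1r), 0.16 (Irf8), -0.35 (Maf) and -0.64 (Spi1). The plain differences were 1.62, 1.52, 1.02 and 0.72. Among the members themselves, the day-centred r was 0.97 between Csf1r and Irf8 and 0.92 between Csf1r and Spi1, and 0.75 between Maf and Cebpa. Csf1 and Csf1r had an r of 0.19. The part of the macrophage transcripts in the changes of Csf1r, Spi1, Irf8 and Maf was not tested.

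**Figure D5:**
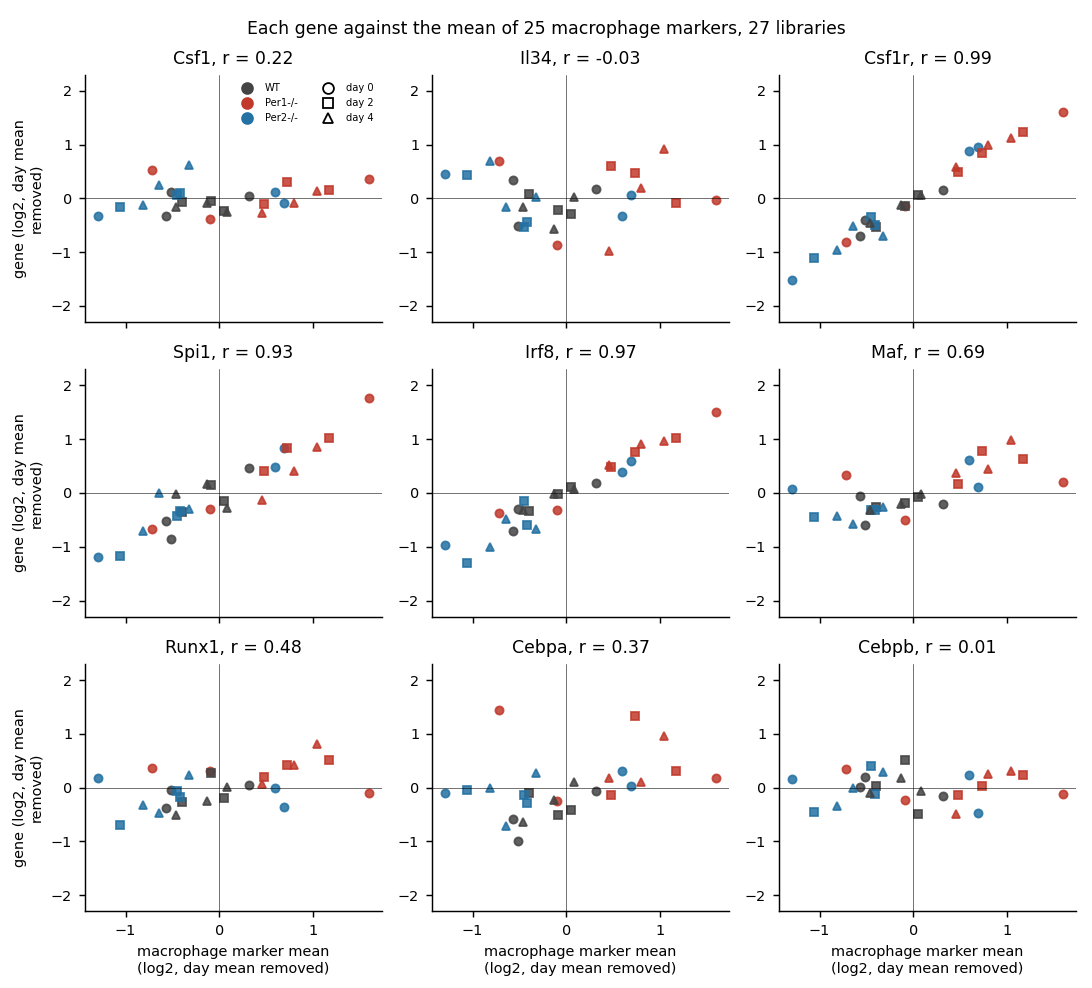
Each of the 9 genes (vertical) against the mean of 25 macrophage markers (horizontal) in 27 libraries, both as log2 of FPKM plus 0.1 with the mean of the day removed, with colours for the genotype and shapes for the day. Csf1r, Irf8 and Spi1 lie along a line (r of 0.988, 0.967 and 0.932), and Cebpb and Il34 do not follow the markers (r of 0.010 and -0.031).

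The 3 tested genes with the highest day-centred correlation over the 27 libraries were found for each member. For Csf1r they were Inpp5d (r = 0.987), which encodes the SHIP1 phosphatase, Adgre1 (0.985), which encodes the F4/80 antigen, and Hpgds (0.983). For Spi1 they were Ptpn7 (0.973), Lcp1 (0.970) and Cd68 (0.968), and for Irf8 they were Pik3cg (0.984), C1qb (0.971) and Csf1r itself (0.970). The other 6 members had looser neighbours. Csf1 came with F3 (0.754), which encodes tissue factor, Nod1 (0.745) and Fabp4 (0.741), Cebpb with Neat1 (0.815), Micall2 (0.754) and Osmr (0.732), and Il34 with Npdc1 (0.754), Phf1 (0.718) and Mtm1 (0.710). Maf came with Slc25a45 (0.876), Nxpe5 (0.871) and Il17ra (0.856), Runx1 with Litaf (0.861), Arhgap31 (0.831) and Dtnbp1 (0.828), and Cebpa with Car13 (0.823), Abca9 (0.820) and Rtn4rl1 (0.800).

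Of 35 adaptors and signalling proteins that act at or below CSF1R, 31 were tested. Between days 0 and 4, 14 were called higher and 3 lower in WT, 17 and 3 in Per1-/- and 12 and 2 in Per2-/- cells, with a median log2 change of 0.54 in WT cells. Over all tested genes, 43.8%, 43.0% and 40.3% were called in these comparisons. The general kinases Akt1 (132 FPKM on average) and Mapk3 (60.3) were under the fold threshold in WT cells, at -0.56 and -0.48, and were not called. The adaptor Fcer1g rose in WT cells (2.01, adjusted p = 0.00222), and so did the phosphatase gene Ptpn6 (2.47) and the kinase gene Pik3cg (2.45), which are most used in blood cells. Dok1, a docking protein of receptor tyrosine kinases, fell (-2.88, adjusted p = 4.39e-12). On day 4, 2 of the 31 were called higher in Per1-/- cells than in those labelled Per2-/-, which were Syk (1.32, adjusted p = 0.0435) and Pik3cd (1.01, adjusted p = 0.0151). The share over all tested genes was 0.556%. Syk was at 6.12, 5.09 and 6.54 FPKM in Per1-/- and 2.44, 1.81 and 2.72 in Per2-/- libraries. No gene of the list was called between Per1-/- and WT cells, against at most 0.0268% of all genes on any day.

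Other colony-stimulating and stem cell factors and their receptors passed the filter for 10 of 18 genes. Csf2, the gene of GM-CSF, had no fragment in any library, which in a library of 24264097 fragments allows at most 3, and Csf3 had a mean of 0.159 FPKM. Csf2ra (10.4 FPKM on average), a receptor chain for GM-CSF, and Kitl (12.1), the ligand of KIT, rose in WT cells from day 0 to day 4 by 0.87 and 1.09 (adjusted p = 0.00236 and 0.000794), whereas Sdc1 (57.0), a proteoglycan that binds IL-34, was not called (0.35). The largest changes in WT cells were those of Epor (2.23), Csf2rb2 (1.59) and Ptprz1 (-1.35), the last of which encodes another receptor of IL-34. In all, 7 of the 10 were called higher and 1 lower in WT and in Per1-/- cells, and 5 and 1 in Per2-/- cells. Over all tested genes, 43.8%, 43.0% and 40.3% were called in WT, Per1-/- and Per2-/- cells. Csf2rb and Csf2rb2 are near-identical copies, and their reads may have been split between them.

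Among 28 tested relatives and partners of the 6 transcription factors, 7 were called higher and 9 lower in WT cells from day 0 to day 4, 8 and 7 in Per1-/-, and 5 and 9 in Per2-/- cells. Cbfb (38.9 FPKM on average), the partner of all RUNX factors, was under the fold threshold (0.42) and not called. Cbfa2t3, a corepressor, rose most (4.41, adjusted p = 9.46e-12), followed by Irf7 (2.32), while the small MAF gene Maff fell (-2.35) and Ddit3 fell (-0.85). Mafg was under the fold threshold (-0.31). Of these genes Fli1, an ETS factor, was the one called between Per1-/- and Per2-/- cells on day 4 (1.42, adjusted p = 0.0132), with 4.53, 4.13 and 4.19 against 1.52, 1.44 and 1.67 FPKM. Of 23 tested other regulators of blood and macrophage identity, 9 were called higher and 4 lower in WT cells, 11 and 5 in Per1-/-, and 8 and 6 in Per2-/- cells. Id2 rose (1.53) and Id3, the highest of the list, was not called (0.04), while Klf4 rose by 0.81. Bhlhe40 (-2.82) and Nr4a1 (-2.73) fell and Lyl1 rose (2.42) in WT cells. On day 4, Bhlhe41 was higher (1.40, adjusted p = 0.0324) and Sall1 lower (-1.25, adjusted p = 0.0471) in Per1-/- than in Per2-/- cells. From day 0 to day 4, 43.8%, 43.0% and 40.3% of all tested genes were called in WT, Per1-/- and Per2-/- cells. Between Per1-/- and Per2-/- cells on day 4 this share was 0.556%. The lists were described by their counts and were not tested as sets.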

How the data were processed

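The authors deposited 1 table of FPKM with 54532 genes and 27 libraries. According to the methods and the submitters' processing notes, the authors aligned paired-end reads of nondirectional poly(A) libraries to GRCm38 (mm10) with HISAT2 2.0.5, counted them on genes with featureCounts 1.5.0-p3 and computed FPKM from counts and gene lengths. The authors tested counts with DESeq2, which was not used here. The deposited gene length was used to recover fragments, and 100% of values gave whole numbers (tolerance 0.01). The number by which fragments were divided was 0.865 to 1.10 times the counted fragments, so that the FPKM held a library factor.

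Replicates are biological according to the labels and differed more than counting alone gives (chi-square over its degrees of freedom, 9.01 to 67.4). Log2(FPKM + 0.1) was fitted for 14932 genes, those averaging 0.5 FPKM or more, with limma 3.58.1 (9 groups, no block, eBayes with trend) in R 4.3.3, with Benjamini-Hochberg adjustment over all tested genes. The procedure was tried on simulated data only for Per1-/- against Per2-/- cells on day 4, with libraries drawn independently. The tests over time and of interactions were not simulated. Intervals are for the mean log2 difference, with a standard error drawn from the spread between libraries. They do not give the range of single libraries. Figures were drawn with matplotlib 3.10.9. The members and gene lists were chosen with earlier results of these data known. Genes named are the members, Per1 and Per2, the 3 highest genes of each list and up to 3 more of its called genes by size of change, and the 3 closest genes of each member. Syk, Pik3cd, Fli1, Bhlhe41, Sall1, Cd86, Cd163, Pecam1, Csf2, Csf3, Csf2rb and the overlapping genes were named after their values were seen. The alternatives were a pseudocount of 1 or 0.01, another or no filter, a fit of only the groups compared, a common sum, upper-quartile scaling, voom weights on fragments, no minimum fold change, a replicate block and each library left out in turn (27 fits).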

Additional observations from a re-analysis of the deposited data

How the results depend on the processing

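Over 37 alternatives, 93 gene and comparison pairs gave 3308 values with the same direction and side of the threshold, 71 with a call lost, 33 with a call gained and 21 with the direction turned, all 21 of pairs that were not called. Leaving out a library of a group not compared, or setting no minimum fold change, leaves the log2 change as it was. Many of the 3308 values could therefore not turn direction. Il34 had no value with a filter at a mean of 1 FPKM. With a common sum, Per1-/- against WT turned for Csf1 (-0.0400) and Cebpb (-0.12) on day 4 and for Cebpb on day 2 (-0.02, and -0.00399 with voom weights), and Il34 of Per1-/- to day 2 turned to 0.0419. A pseudocount of 1 turned Irf8 of Per2-/- to day 2 (-0.0189). With 1 library left out, Per1-/- against WT ranged from -0.23 to 0.27 (Cebpb, day 2), -0.13 to 0.27 (Cebpb, day 4), -0.0133 to 0.20 (Csf1, day 4) and -0.17 to 0.78 (Il34, day 4). The changes of Il34 in Per1-/- cells then ranged from -0.71 to 0.0691 to day 2 and from -0.79 to 0.17 to day 4, and in Per2-/- cells to day 2 from -0.53 to 0.71 for Csf1r and -0.48 to 0.31 for Irf8. The count of member calls from day 0 to day 2 (16 over the 3 genotypes) stayed between 14 and 17 with 1 library left out, and that from day 0 to day 4 (23) between 22 and 23. Against WT, 0 calls of Per1-/- or Per2-/- cells were made in any alternative. For Per1-/- against Per2-/- cells, 1 call (Maf) became 2 with a pseudocount of 1, with only the groups compared and with voom weights, 0 with FPKM rescaled to a common sum, and 0 to 2 with 1 library left out. With only the groups compared these were Csf1r (adjusted p = 0.0342) and Irf8 (adjusted p = 0.0403), and Maf was lost (adjusted p = 0.0799). Irf8 was gained beside Maf with the pseudocount of 1 (1.04, adjusted p = 0.0159) and with voom weights (1.62, adjusted p = 0.00984), and without Per1-/- replicate 3 of day 0 (adjusted p = 0.029). The 3 calls between days 2 and 4 became 1 with no filter on low values, 8 with only the groups compared, 0 with a common sum, and 1 to 4 with 1 library left out. The WT call of Cebpa to day 2 held in 15 of 37 alternatives. The cause of these moves was not tested. Depth limited Il34 most, with 11 to 70 fragments per library.

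With the replicate block, 8 member calls were made between days 2 and 4 and 1 in the 6 interaction tests (0 without it), for Maf between Per1-/- and Per2-/- cells to day 4 (adjusted p = 0.0445). The calls gained between days 2 and 4 were those of Cebpa in all 3 genotypes (adjusted p = 0.0131, 0.035 and 0.0163 in WT, Per1-/- and Per2-/- cells) and of Csf1 (adjusted p = 0.00447) and Spi1 (adjusted p = 0.034) in Per2-/- cells. To day 2 it gave 21 calls in place of 16, the added ones being Il34 in WT (adjusted p = 0.034) and Per2-/- cells (adjusted p = 0.0219), Csf1r (adjusted p = 0.0223) and Irf8 (adjusted p = 0.0147) in WT and Cebpa in Per1-/- cells (adjusted p = 0.0189). No other call changed with the block. The numbers were not taken to pair the libraries. Same-numbered libraries of a genotype on different days had correlated deviations with r of -0.017 to 0.294, over 0.1 in 14 of 27 pairs. For different-numbered libraries the r was -0.209 to 0.088, over 0.1 in 0 of 54 pairs. The main fit takes no account of this. Of the libraries, 26 of 27 libraries correlated best with their own number on the other days, which is a hint from the data and not from the design, whereas 6 did so across genotypes of a day.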
